A study of Mus musculus with 6 samples.

Results

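Solute carriers are membrane proteins that move amino acids, sugars, metals, nucleosides, vitamins, ions and metabolites across the plasma membrane and the membranes of organelles. Their genes carry the root symbol Slc followed by a family number, and a family shares sequence and, for the most part, substrates. In macrophages they are known for feeding arginine and glutamine metabolism, for loading mitochondria with metabolites and for moving zinc, iron and copper between compartments. The genes described here are the protein-coding Slc genes with a mean of at least 1 CPM (counts scaled to a library total of 1000000) over 6 RNA-seq libraries of peritoneal macrophages, without Slc2a1, Slc2a3, Slc16a3, Slc7a2, Slc11a1 and Slc40a1, which were left out by name. They were 170 of the 370 protein-coding Slc genes in the deposited table, which lists 48709 genes. Members were chosen by their mean CPM over the 6 libraries, so levels are given as a description, with no test. The cutoff on mean CPM did not use the genotype, but the members were chosen with earlier results of these data known.

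The libraries came from untreated Zeb1 (+/-) and wild-type mice of the C57BL/6 strain aged 6 to 8 weeks, with 3 libraries per genotype and 2 mice pooled in each. Zeb1 encodes a zinc-finger repressor that binds E-box sequences, and the comparison asks how macrophages that carry 1 functional copy differ from wild-type ones. Cells were F4/80+ CD11b+ cells sorted from peritoneal lavage by flow cytometry, read as messenger RNA with a stranded kit. The sources used here do not say how the Zeb1 allele was made. The allele is carried by the whole animal, so cells other than macrophages carried it too.

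Libraries held 17859872 to 42165006 counts in Zeb1 (+/-) mice and 18574049 to 33358835 counts in wild-type mice, so 1 CPM stands for 17.9 to 42.2 counts. The 170 genes took 0.675% to 0.704% of the counts of Zeb1 (+/-) libraries and 0.703% to 0.737% of those of wild-type libraries. All 170 were detected in every library, and all passed the filter on low counts. Zeb1 itself stood at 3.85, 3.45 and 3.62 CPM in Zeb1 (+/-) libraries, against 5.44, 7.56 and 7.22 CPM in wild-type libraries, a log2 fold change of −0.89 ± 0.16 (SE; edgeR adjusted p = 0.0522). CPM values here and below use library sizes scaled by TMM. Defining markers of large peritoneal macrophages were present, with 0 of 13 past the adjusted threshold of 0.05, a median log2 fold change of 0.18 and a summed level of 78297 to 83926 CPM in Zeb1 (+/-) libraries, against 71950 to 78086 CPM in wild-type libraries. Of these 13 log2 fold changes, 1 was below 0. The list of small peritoneal macrophages had 6 of 11 genes that fell past that threshold, where 0.433% of all tested genes did. Its summed level was 1431 to 1623 CPM in Zeb1 (+/-) libraries, against 2262 to 2392 CPM in wild-type libraries. B cell markers summed to 86.0 to 116 CPM in Zeb1 (+/-) libraries, against 140 to 282 CPM in wild-type libraries, with 0 of 12 tested genes past the threshold. In sorted bulk samples, fewer cells of a type and less RNA per cell cannot be told apart. Structural RNA took 43.6, 45.5 and 44.3 CPM in Zeb1 (+/-) libraries, against 4.14, 8.69 and 42.2 CPM in wild-type libraries, so wild-type replicates 1 and 2 stood apart. The part of these differences in the results below was not tested beyond the fits given in the closing section. The fit with the structural RNA split sets wild-type replicates 1 and 2 apart, so its genotype term rests on wild-type replicate 3 alone. The B cell sums did not overlap between genotypes, so a fit with the B cell mean can hardly part that mean from genotype.

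No solute carrier gene passed the test between genotypes. Of the 170 genes, 0 had an adjusted p under 0.05 in edgeR's quasi-likelihood test, where 0.587% of all 12940 tested genes did (0.155% higher and 0.433% lower in Zeb1 (+/-) libraries). The genes nearest to the threshold were a pair of zinc carriers on opposite sides, Slc39a10 higher and Slc30a1 lower in Zeb1 (+/-) libraries, and Slc28a2, Slc13a3 and Slc9a9, all lower. These 5 were the genes with an adjusted p under 0.1, or 2.94% of the members, where 1.65% of all tested genes met that rule. At an unadjusted p under 0.05 there were 27 genes, 15.9% of the members against 14.6% of all tested genes. They were split unevenly, with 22 lower (12.9% of members; 8.26% of all tested genes) and 5 higher (2.94% of members; 6.3% of all tested genes). DESeq2 called 6 members (3.53%), where it called 2.71% of all tested genes, and limma-voom called 0. Without the filter on low counts edgeR called 7 members (4.12%), where it called 2.47% of all genes in that fit.

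The differences were small. The median log2 fold change over the 170 genes was −0.016 (quartiles −0.14 and 0.061), against −0.00038 over all tested genes, and the values ran from −0.58 to 0.59. Only 3 of the 170 genes, or 1.76%, differed by 0.5 or more on the log2 scale, where 6.89% of all tested genes and 4.35% of tested genes with a mean of at least 1 CPM did. The 95% confidence interval of the change stayed within 1.5-fold either way for 149 genes, or 87.6% of the members. The same held for 80.9% of tested genes with at least that mean CPM. All 3 Zeb1 (+/-) libraries lay below all 3 wild-type libraries in 21 genes (12.4%, against 10.3% of all tested genes). They lay above in 9 genes (5.29%, against 9.6% of all tested genes). Genotypes thus did not overlap in 30 genes, or 17.6%, against 19.9% of all tested genes, and the log2 fold change was below 0 in 95 genes, or 55.9%, against 50.1%.

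**Figure D1:**
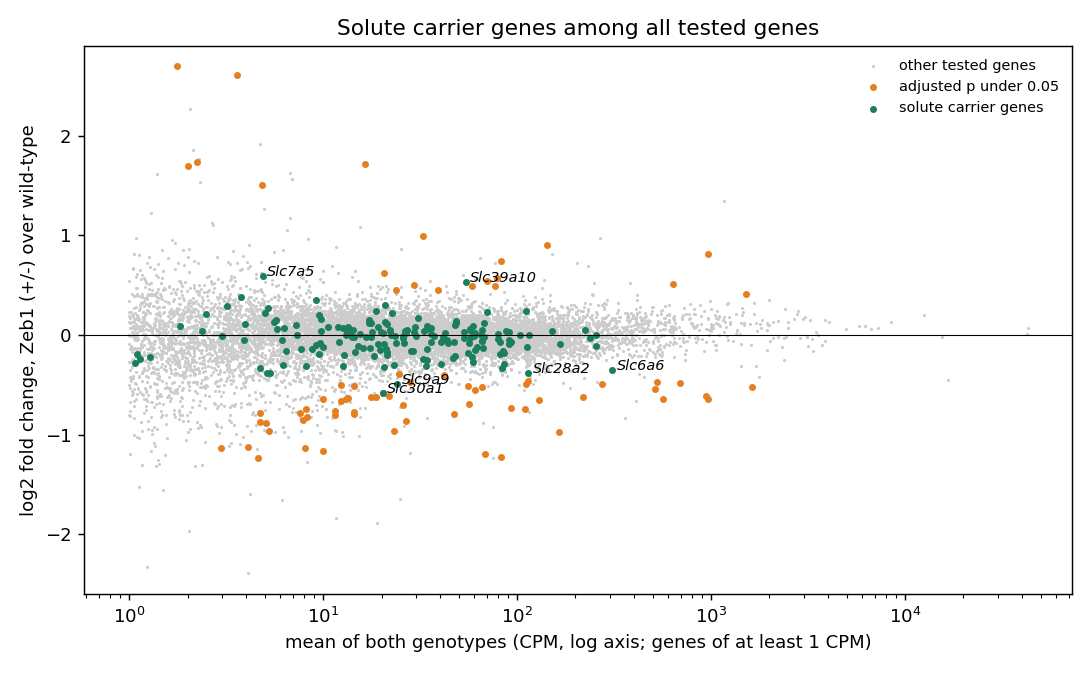
Each point is a tested gene with a mean of at least 1 CPM, placed by its mean CPM on a log axis and its log2 fold change of Zeb1 (+/-) over wild-type libraries. The 170 solute carrier genes lie between −0.58 and 0.59, and none passed the adjusted threshold; other genes that did are in orange.

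The same genes differed far more in level than by genotype. Levels between genes are compared as CPM per kilobase of exon. The median was 6.94, with a range of 0.268 to 181, and 29 genes stood above 20 while 11 stood under 1. The 10 highest genes held 30.9% of the summed level. A member was found in 42 of the 49 Slc families listed, and none came from families 18, 24, 32, 34, 40, 47 or 51. Members ranged from 25.0% of the Slc genes of organic ion, vesicular and other carriers to 80.0% of the carriers of iron, copper, magnesium and haem, with 78.3% of the carriers of nucleotide sugars and acetyl-CoA and 74.5% of the mitochondrial carriers. The genes named for a carrier without being one were all members. Libraries of a genotype were close, with a median ratio of the highest to the lowest CPM of 1.16 in Zeb1 (+/-) and 1.15 in wild-type libraries. The ratio passed 2 in 6 genes and 3 in 1 gene, Slc25a43, at 2.29, 1.56 and 1.98 CPM in Zeb1 (+/-) libraries, against 1.92, 2.77 and 0.478 CPM in wild-type libraries. The low value was that of wild-type replicate 3. Next to the limit of 1 CPM, Slc14a1, Slc43a3 and Slc4a11 were just inside at 1.07, 1.10 and 1.14 CPM, and Slc6a8, Slc18b1 and Slc9a4 just outside at 0.959, 0.946 and 0.885 CPM.

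**Figure D2:**
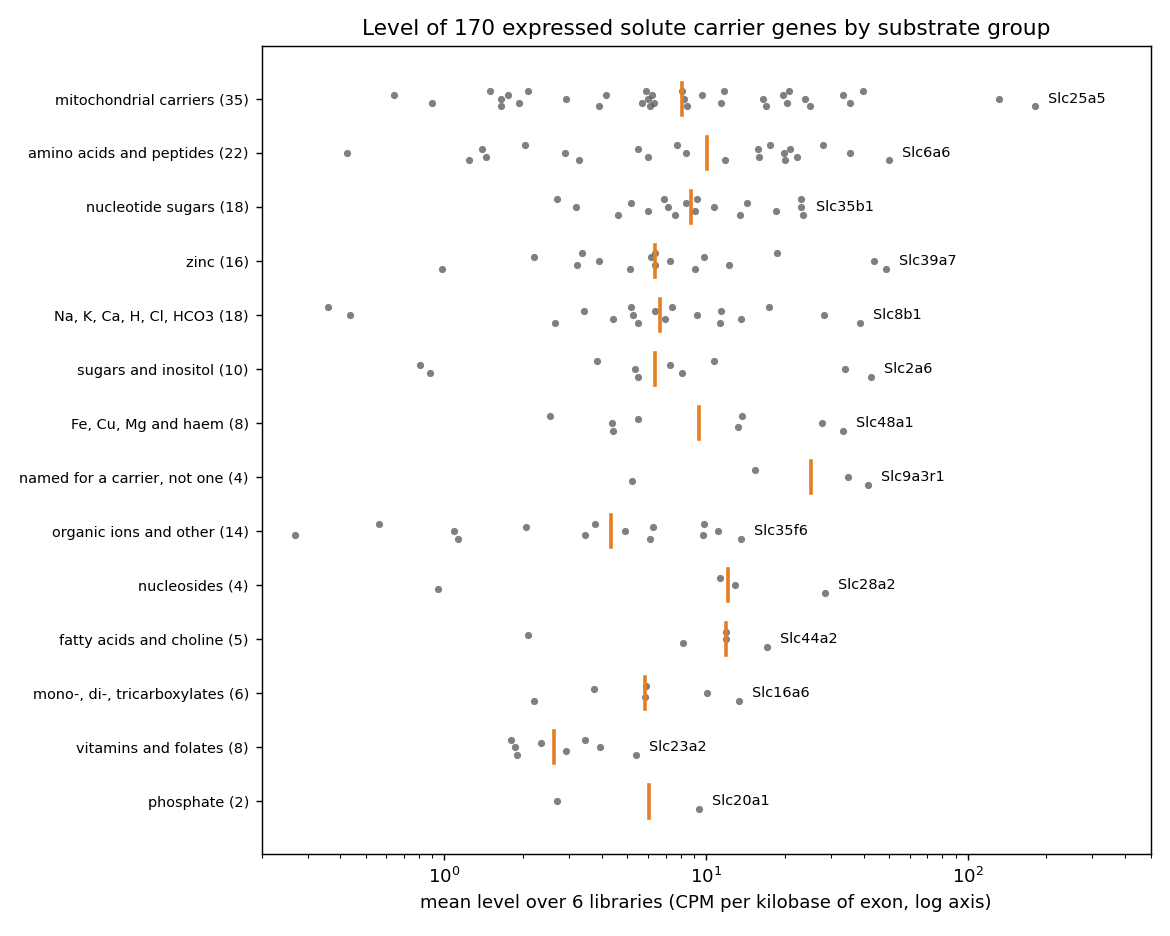
Mean level of each of the 170 genes over 6 libraries, in CPM per kilobase of exon on a log axis, by substrate group with its number of genes; orange lines are group medians. Mitochondrial carriers hold the highest levels, led by Slc25a5 and Slc25a3.

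Zinc carriers form a pair of families with opposite directions of transport. SLC39 (ZIP) proteins bring zinc into the cytosol and SLC30 (ZnT) proteins take it out, to the outside or into organelles. The 16 zinc carriers included the member closest to the threshold in each direction, and both belong to the plasma membrane. Slc39a10, a zinc importer of the cell surface, had 55.5, 62.0 and 74.5 CPM in Zeb1 (+/-) libraries, against 45.2, 43.1 and 45.1 CPM in wild-type libraries. All 3 Zeb1 (+/-) libraries lay above the wild-type range, by a log2 fold change of 0.53 ± 0.10 (SE; 95% confidence interval 0.30 to 0.76; edgeR adjusted p = 0.0649). Slc30a1, the main zinc exporter of the cell surface, had 18.9, 13.9 and 16.6 CPM in Zeb1 (+/-) libraries, against 26.7, 24.3 and 21.8 CPM in wild-type libraries. Here the Zeb1 (+/-) libraries all lay below the wild-type range, by a log2 fold change of −0.58 ± 0.12 (SE; 95% confidence interval −0.85 to −0.31; edgeR adjusted p = 0.0816). Both genes were among those DESeq2 called. Over the 14 settings of the closing section, Slc39a10 passed the threshold in 3 and Slc30a1 in 2. When 1 library was left out, the edgeR adjusted p was 0.0490 to 0.259 for Slc39a10 and 0.0708 to 0.287 for Slc30a1. With the structural RNA split in the fit, the log2 fold change of Slc39a10 was 0.51 and that of Slc30a1 −0.42. That fit compares the Zeb1 (+/-) libraries with wild-type replicate 3 alone.

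The other 14 zinc carriers had overlapping genotypes, where 19.9% of all tested genes had genotypes that did not overlap. The highest levels were those of Slc39a7, which releases zinc from the endoplasmic reticulum and Golgi (49.0 ± 3.63 CPM per kilobase in Zeb1 (+/-) and 48.9 ± 2.76 in wild-type libraries; SD, n = 3 each), and of Slc39a1, an importer of the cell surface (43.8 ± 1.43 in Zeb1 (+/-) and 43.8 ± 1.64 in wild-type libraries). Both levels are uncertain, since 74.5% of the 50-base stretches of Slc39a7 and 21.8% of those of Slc39a1 occur in other genes. The most matches were in the overlapping gene Gm20427 for Slc39a7 and in a pseudogene for Slc39a1. Slc30a5, which loads zinc into the secretory pathway, stood at 19.2 ± 2.68 in Zeb1 (+/-) and 18.0 ± 2.34 in wild-type libraries. The summed CPM of the 16 genes was 679 ± 32.8 in Zeb1 (+/-) libraries and 654 ± 19.8 in wild-type libraries (SD, n = 3 each). A list of genes of the zinc response gave 0 of 3 past the threshold, and all 3 log2 fold changes were below 0. They are Mtf1, the zinc-sensing transcription factor, and its metallothionein targets Mt1 and Mt2. Mt2 was low, at a mean of 0.891 CPM in Zeb1 (+/-) and 1.18 CPM in wild-type libraries. Mt1 had 53.6, 60.3 and 55.6 CPM in Zeb1 (+/-) libraries, against 71.8, 65.2 and 64.3 CPM in wild-type libraries, with no overlap (log2 fold change −0.25, edgeR adjusted p = 0.179).

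**Figure D3:**
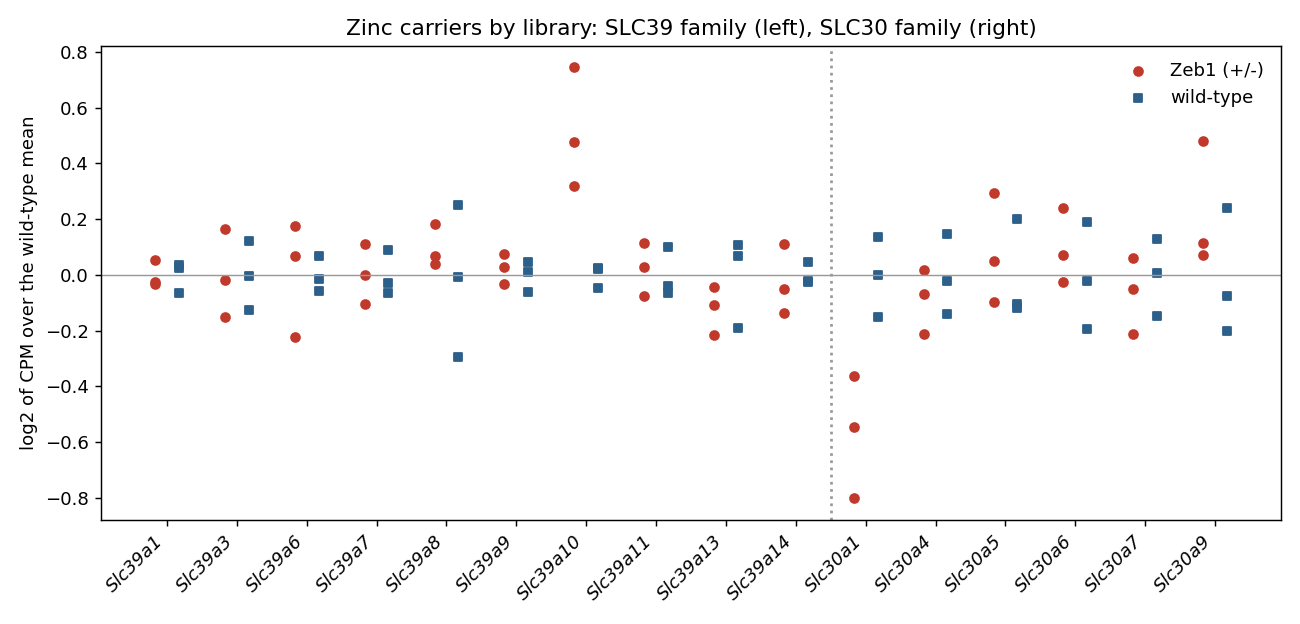
CPM of each zinc carrier in each library, as the log2 ratio to its wild-type mean, with the SLC39 family on the left and the SLC30 family on the right. The genotypes separate in Slc39a10, where Zeb1 (+/-) libraries lie above, and in Slc30a1, where they lie below; the other 14 genes overlap.

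MTF1 binds metal response elements, and the mouse Slc30a1 promoter is a known target, so the promoter windows of this pair are shown from RefSeq on GRCm38.p6, each from 250 bases before to 50 after a transcription start. The Slc30a1 gene lies at chr1:191906767-191913247 on the plus strand, and its window at chr1:191906531-191906830. Slc39a10 lies at chr1:46807544-46892852 on the minus strand, and the window shown is chr1:46853569-46853868, inside these bounds. Another RefSeq window of this gene, chr1:46925727-46926026, lies outside them. Neither window covers the start of the gene as placed here. Capitals mark matches to the core of the metal response element, TGCACNC or TGCGCNC, searched on both strands.
Slc30a1: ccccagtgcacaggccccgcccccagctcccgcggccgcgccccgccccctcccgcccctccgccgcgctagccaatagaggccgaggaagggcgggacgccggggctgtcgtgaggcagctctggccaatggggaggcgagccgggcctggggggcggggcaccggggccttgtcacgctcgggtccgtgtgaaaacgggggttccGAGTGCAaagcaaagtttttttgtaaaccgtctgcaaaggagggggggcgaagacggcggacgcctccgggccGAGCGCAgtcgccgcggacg
Slc39a10: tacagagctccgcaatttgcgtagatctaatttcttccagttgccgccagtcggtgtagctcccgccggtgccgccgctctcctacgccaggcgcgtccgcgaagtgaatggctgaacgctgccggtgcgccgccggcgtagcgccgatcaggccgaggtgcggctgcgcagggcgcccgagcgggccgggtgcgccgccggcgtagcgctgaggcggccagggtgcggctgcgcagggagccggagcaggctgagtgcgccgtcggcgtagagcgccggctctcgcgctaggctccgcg
The Slc30a1 window held 2 matches, both on the minus strand, at bases 208 to 214 and 281 to 287 of the window. The Slc39a10 window, and the other RefSeq window of this gene, held none. Over all members with a window, 53 of 129 genes (41.1%) held the core, near the 40.2% of tested genes and above the 28.2% of all genes in the promoter table. The E-box CACCTG, the form ZEB1 is known to bind, was searched on both strands of the same windows. It was found in 23 of 129 members (17.8%), against 19.6% of tested genes and 22.6% of all genes. Neither the Slc30a1 window nor those of Slc39a10 held it. A match is a run of letters and was not tested as a site.

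Carriers of amino acids, peptides and amines were 22 of 67 in the table and held 14.1% of the summed level. Their summed CPM was 1458, 1335 and 1452 in Zeb1 (+/-) libraries, against 1499, 1609 and 1551 in wild-type libraries, which do not overlap. None passed the threshold, and at an unadjusted p under 0.05 there were 4 lower and 2 higher. At that p 8.26% of all tested genes were lower and 6.3% higher. Much of the difference in the sum was in Slc6a6, the taurine transporter and the highest of the group at 44.1 ± 4.04 CPM per kilobase in Zeb1 (+/-) and 56.1 ± 3.01 in wild-type libraries (SD, n = 3 each). It had 277, 246 and 296 CPM in Zeb1 (+/-) libraries, against 328, 366 and 347 CPM in wild-type libraries. All Zeb1 (+/-) libraries lay below, by a log2 fold change of −0.35 ± 0.08 (SE; edgeR adjusted p = 0.109). Slc43a2, a carrier of large neutral amino acids, followed at 34.2 ± 6.18 and Slc38a10, a member of the glutamine carrier family, at 28.4 ± 0.810 in Zeb1 (+/-) libraries, against 36.8 ± 4.70 and 27.5 ± 0.206 in wild-type libraries.

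Slc7a5 was on the higher side. It encodes LAT1, the light chain of an exchanger that brings leucine and other large neutral amino acids into the cell, and had 4.85, 6.14 and 6.55 CPM in Zeb1 (+/-) libraries, against 3.99, 3.65 and 4.14 CPM in wild-type libraries. The genotypes did not overlap, and the log2 fold change of 0.59 ± 0.15 was the highest of the 170 genes (SE; edgeR adjusted p = 0.137). Its heavy chain Slc3a2, which also pairs with other SLC7 light chains, overlapped, at 57.2, 63.8 and 70.5 CPM in Zeb1 (+/-) libraries, against 71.1, 68.5 and 71.0 CPM in wild-type libraries. Slc7a1, a carrier of arginine and other cationic amino acids, had 19.1, 25.0 and 24.5 CPM in Zeb1 (+/-) libraries, against 17.8, 19.2 and 19.3 CPM in wild-type libraries, and Zeb1 (+/-) replicate 1 lay within the wild-type range. Targets of ATF4, the factor that induces several amino acid carriers when amino acids are scarce, gave 0 of 9 tested genes past the threshold, with a median log2 fold change of 0.18. Slc38a6, a less well known member of the SLC38 family, had 37.4, 36.0 and 35.7 CPM in Zeb1 (+/-) libraries, against 40.1, 45.8 and 47.7 CPM in wild-type libraries (log2 fold change −0.29 ± 0.08, SE; edgeR adjusted p = 0.151). The genotypes did not overlap. Of its 50-base stretches, however, 22.8% occur in other genes on the same strand and 34.5% in other genes on the opposite strand. How its reads were assigned thus bears on this value.

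Nucleoside carriers were few, with 4 members of 7 genes, and their sum was lower in Zeb1 (+/-) libraries. It was 184, 180 and 201 CPM in Zeb1 (+/-) libraries, against 225, 232 and 239 CPM in wild-type libraries, and most of it came from Slc28a2. Slc28a2 encodes the sodium-coupled carrier of purine nucleosides and had 97.2, 97.3 and 104 CPM in Zeb1 (+/-) libraries, against 119, 124 and 145 CPM in wild-type libraries. The genotypes did not overlap, at a log2 fold change of −0.38 ± 0.08 (SE; 95% confidence interval −0.57 to −0.19; edgeR adjusted p = 0.0938). Of its 50-base stretches 35.4% occur in other genes, with the most matches in Gm14085. With the mean of the B cell markers in the fit the log2 fold change was −0.18. Slc29a1, the equilibrative nucleoside carrier of the cell surface, did not overlap either, at 33.0, 30.8 and 34.3 CPM in Zeb1 (+/-) libraries, against 35.4, 36.1 and 36.4 CPM in wild-type libraries. Slc29a3, the carrier of lysosomes whose loss in humans and mice disturbs macrophages, overlapped, at 51.5, 49.4 and 60.2 CPM in Zeb1 (+/-) libraries, against 68.6, 69.4 and 55.8 CPM in wild-type libraries.

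Carriers of sodium, potassium, calcium, protons, chloride and bicarbonate were 18 of 52 in the table. None passed the threshold, and 5 were lower and 0 higher at an unadjusted p under 0.05, with a median log2 fold change of −0.11. Of all tested genes 8.26% were lower and 6.3% higher at that p. Slc9a9, a sodium-proton exchanger of endosomes, had 17.5, 20.5 and 22.0 CPM in Zeb1 (+/-) libraries, against 24.5, 29.7 and 30.8 CPM in wild-type libraries. The genotypes did not overlap, at a log2 fold change of −0.49 ± 0.11 (SE; 95% confidence interval −0.74 to −0.24; edgeR adjusted p = 0.0988). By level the group was led by Slc8b1, the sodium-calcium exchanger of mitochondria (37.0 ± 2.78 CPM per kilobase in Zeb1 (+/-) and 40.3 ± 5.13 in wild-type libraries; SD, n = 3 each).

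**Figure D4:**
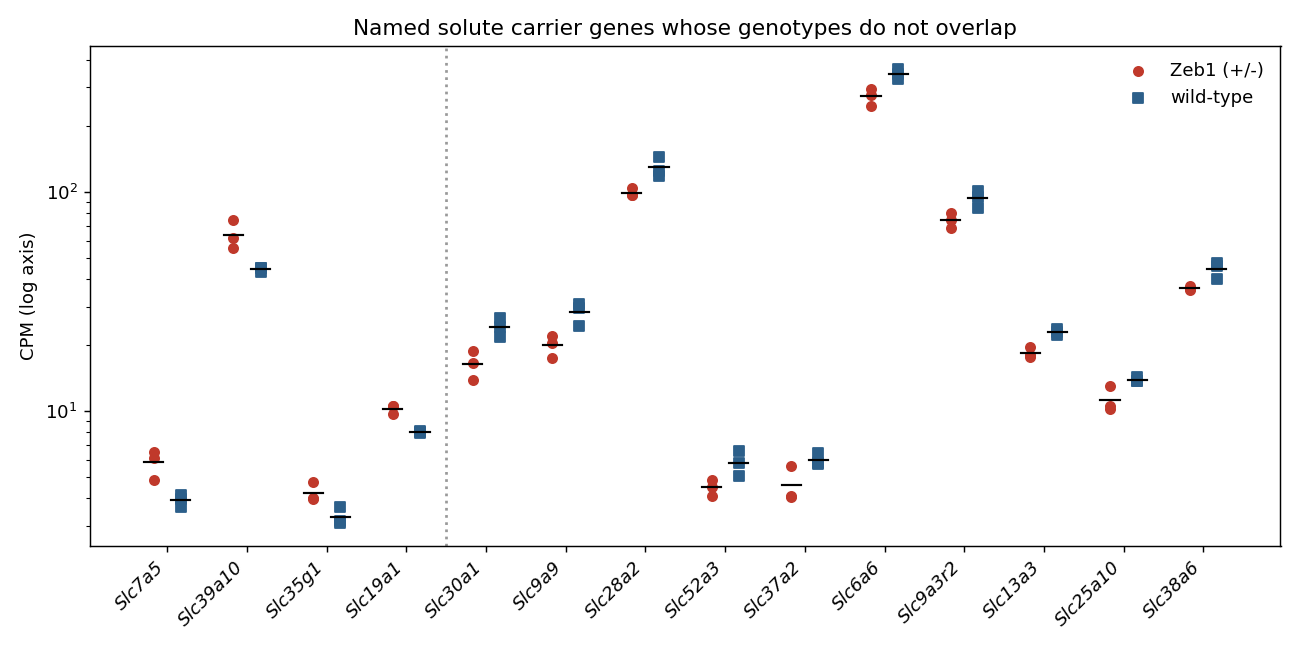
CPM in each of 3 Zeb1 (+/-) and 3 wild-type libraries for the 14 members that differed most among members with separate genotypes and an unadjusted p under 0.05. Short lines are genotype means, the dotted line parts the 4 higher from the 10 lower genes, no gene has overlapping genotypes, and the adjusted p lies between 0.0649 and 0.327.

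Mitochondrial carriers were the largest group, and their summed CPM was close between genotypes. The SLC25 proteins exchange nucleotides, phosphate, acids and cofactors across the inner mitochondrial membrane, and 35 of 47 were members, with 32.2% of the summed level. Their summed CPM was 1531 ± 16.8 in Zeb1 (+/-) and 1523 ± 7.85 in wild-type libraries (SD, n = 3 each), and the median log2 fold change was 0.034. Slc25a5, an exchanger of ADP and ATP, was the highest of all 170 genes. It stood at 184 ± 5.02 CPM per kilobase in Zeb1 (+/-) and 178 ± 10.1 in wild-type libraries, though 33.8% of its stretches occur in other genes. Slc25a3, the phosphate carrier, stood at 132 ± 2.59 in Zeb1 (+/-) and 132 ± 3.28 in wild-type libraries, and Slc25a37, the iron importer mitoferrin, at 38.5 ± 1.68 in Zeb1 (+/-) and 41.1 ± 1.71 in wild-type libraries. Genotypes did not overlap in 19.9% of all tested genes. Here they overlapped in 34 of the 35 genes. The exception was Slc25a10, the dicarboxylate carrier, with 10.2, 10.6 and 13.0 CPM in Zeb1 (+/-) libraries, against 14.3, 13.7 and 13.8 CPM in wild-type libraries (log2 fold change −0.31 ± 0.11, SE; edgeR adjusted p = 0.243).

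**Figure D5:**
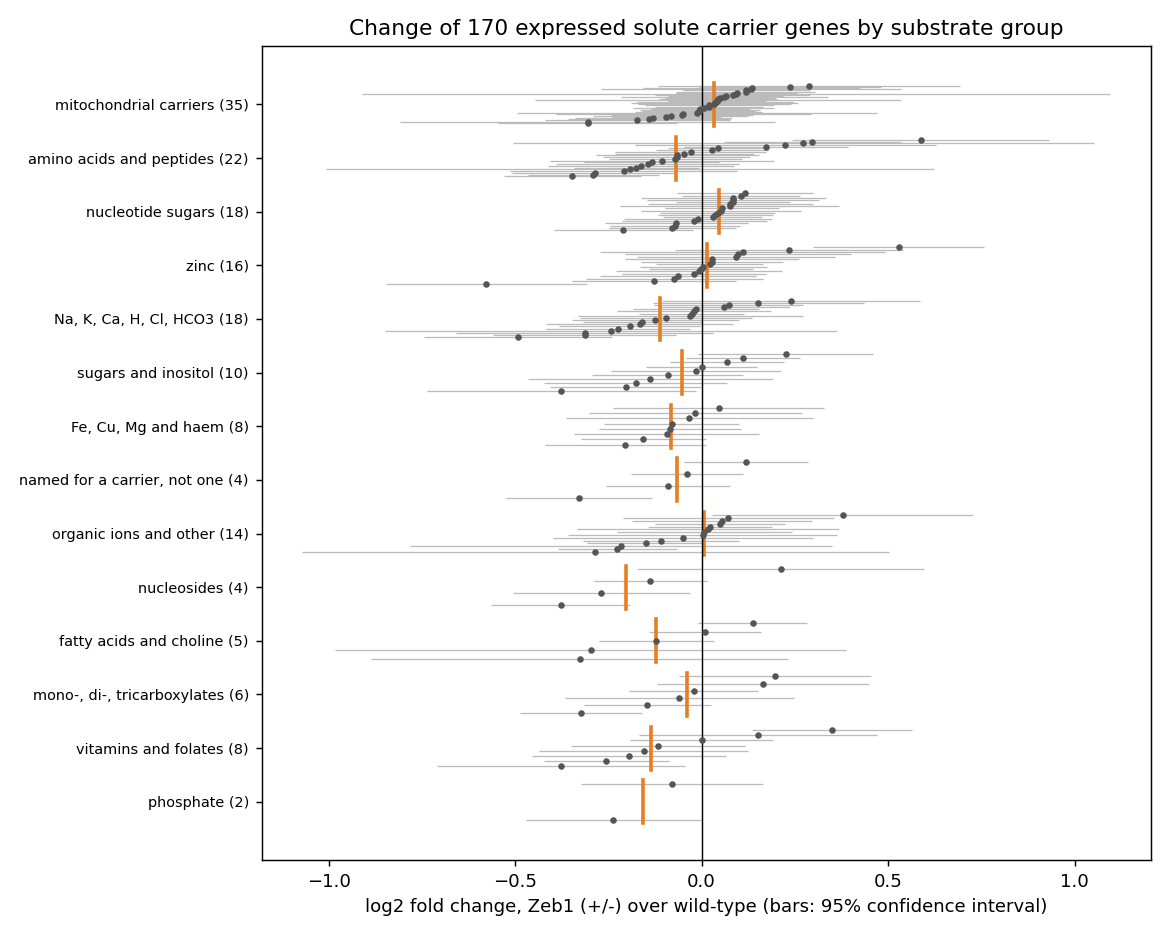
Log2 fold change of Zeb1 (+/-) over wild-type libraries for each of the 170 genes, by substrate group, with grey bars for the 95% confidence interval and orange lines for group medians. Mitochondrial carriers lie close around their median of 0.034, and zinc carriers span −0.58 to 0.53.

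Vitamin and folate carriers were 8 of 13 and had low levels. Slc23a2, an ascorbate importer, led at 4.94 ± 0.363 CPM per kilobase in Zeb1 (+/-) and 5.90 ± 0.211 in wild-type libraries (SD, n = 3 each), before Slc46a3, a lysosomal carrier, at 3.66 ± 0.429 in Zeb1 (+/-) and 4.19 ± 0.272 in wild-type libraries. Slc5a6, the carrier of biotin and pantothenate, was at 3.46 ± 0.182 in Zeb1 (+/-) and 3.45 ± 0.155 in wild-type libraries. At an unadjusted p under 0.05 there were 2 lower and 1 higher, where 8.26% of all tested genes were lower and 6.3% higher. Slc19a1, the reduced folate carrier, which also imports cyclic dinucleotides in human cells, had 10.6, 10.6 and 9.68 CPM in Zeb1 (+/-) libraries, against 7.96, 8.16 and 8.07 CPM in wild-type libraries. Its genotypes stood apart with little spread (log2 fold change 0.35 ± 0.10, SE; edgeR adjusted p = 0.153). Slc52a3, a riboflavin carrier, had 4.52, 4.84 and 4.11 CPM in Zeb1 (+/-) libraries, against 5.80, 6.60 and 5.04 CPM in wild-type libraries (log2 fold change −0.38 ± 0.15, SE; edgeR adjusted p = 0.293). These also did not overlap. Genotypes did not overlap in 19.9% of all tested genes.

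Sugar carriers were 10 of 29. Slc2a6, a lysosomal member of the glucose carrier family, led at 41.3 ± 1.57 CPM per kilobase in Zeb1 (+/-) and 44.0 ± 5.36 in wild-type libraries (SD, n = 3 each), then Slc50a1, a sugar carrier, at 34.6 ± 1.50 in Zeb1 (+/-) and 33.0 ± 1.30 in wild-type libraries. Slc2a8, an intracellular hexose carrier, had 28.3, 22.6 and 22.1 CPM in Zeb1 (+/-) libraries, against 19.4, 20.8 and 21.9 CPM in wild-type libraries, which meet at the edge without overlap. Slc37a2, a sugar phosphate exchanger of the endoplasmic reticulum, had 4.07, 4.11 and 5.60 CPM in Zeb1 (+/-) libraries, against 5.80, 5.75 and 6.48 CPM in wild-type libraries (log2 fold change −0.38 ± 0.16, SE; edgeR adjusted p = 0.327). Again no value overlapped. Nucleotide sugar and acetyl-CoA carriers were 18 of 23. Among them are carriers that supply the Golgi and endoplasmic reticulum with nucleotide sugars for glycosylation. Their summed CPM was 635 ± 11.0 in Zeb1 (+/-) and 628 ± 27.1 in wild-type libraries, with 1 lower and 0 higher at an unadjusted p under 0.05. At that p 8.26% of all tested genes were lower and 6.3% higher. The leading genes by level were Slc35b1 (24.2 ± 3.28 CPM per kilobase in Zeb1 (+/-), 22.9 ± 3.81 in wild-type libraries), Slc35a4 (23.6 ± 0.366 in Zeb1 (+/-), 22.7 ± 1.54 in wild-type libraries) and Slc35c2 (23.8 ± 0.703 in Zeb1 (+/-), 22.1 ± 1.47 in wild-type libraries).

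Among carriers of carboxylates, 6 of 21, the leading genes were Slc16a6, which exports ketone bodies in zebrafish, and Slc16a10, a carrier of aromatic amino acids and thyroid hormones. They stood at 12.7 ± 0.727 and 9.85 ± 1.63 CPM per kilobase in Zeb1 (+/-) libraries, against 14.0 ± 0.978 and 10.3 ± 1.67 in wild-type libraries (SD, n = 3 each). Slc13a3, the sodium-coupled carrier of dicarboxylates such as succinate, and of itaconate in human cells, had 19.6, 17.7 and 18.0 CPM in Zeb1 (+/-) libraries, against 23.0, 23.6 and 22.3 CPM in wild-type libraries. The genotypes were far apart for their spread, at a log2 fold change of −0.32 ± 0.07 (SE; 95% confidence interval −0.49 to −0.16; edgeR adjusted p = 0.0988). Of all tested genes 14.6% had an unadjusted p under 0.05. Iron, copper, magnesium and haem carriers were 8 of 10, with 0 past that p in either direction. They were led by Slc48a1, which moves haem out of lysosomes, at 31.7 ± 1.11 in Zeb1 (+/-) and 35.3 ± 2.89 in wild-type libraries, and by Slc31a2, a copper carrier of endosomes, at 26.9 ± 2.34 in Zeb1 (+/-) and 28.5 ± 1.61 in wild-type libraries. Next was Slc22a17, a lipocalin receptor, at 14.0 ± 2.23 in Zeb1 (+/-) and 13.5 ± 1.55 in wild-type libraries. Fatty acid and choline carriers, 5 of 12, likewise had 0 past an unadjusted p of 0.05. Slc44a2, a choline carrier, was at 16.4 ± 0.496 in Zeb1 (+/-) and 17.9 ± 1.13 in wild-type libraries, Slc27a4, a fatty acid importer, at 12.5 ± 0.297 in Zeb1 (+/-) and 11.4 ± 0.554 in wild-type libraries, and Slc44a1, a choline carrier, at 11.9 ± 0.369 in Zeb1 (+/-) and 11.9 ± 0.691 in wild-type libraries.

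Both phosphate importers of the SLC20 family were members, Slc20a1 at 8.63 ± 0.668 CPM per kilobase in Zeb1 (+/-) and 10.2 ± 1.37 in wild-type libraries, and Slc20a2 at 2.63 ± 0.281 in Zeb1 (+/-) and 2.76 ± 0.134 in wild-type libraries (SD, n = 3 each). Organic ion, vesicular and other carriers were 14 of 56. Slc35f6 led with 12.5 ± 0.880 in Zeb1 (+/-) and 14.6 ± 0.255 in wild-type libraries, before Slc17a5, which exports sialic acid from lysosomes, at 11.1 ± 0.688 in Zeb1 (+/-) and 11.1 ± 1.64 in wild-type libraries. Slc35f5 was at 9.84 ± 0.707 in Zeb1 (+/-) and 9.72 ± 0.226 in wild-type libraries. Slc35g1 was higher in Zeb1 (+/-) libraries, at 4.02, 4.77 and 3.96 CPM in Zeb1 (+/-) libraries, against 3.15, 3.09 and 3.66 CPM in wild-type libraries (log2 fold change 0.38 ± 0.16, SE; edgeR adjusted p = 0.312). Its genotypes did not overlap, and the value was 0.22 with the structural RNA split and 0.60 with the B cell mean in the fit. The rule also took in 4 genes that are named for a carrier but are not carriers. Slc9a3r1 and Slc9a3r2 are scaffold proteins, at 40.9 ± 1.44 and 31.0 ± 2.55 CPM per kilobase in Zeb1 (+/-) libraries, against 42.0 ± 2.33 and 38.8 ± 3.38 in wild-type libraries, and Slc7a6os was at 14.9 ± 0.853 in Zeb1 (+/-) and 15.9 ± 0.164 in wild-type libraries. Slc9a3r2 had 74.6, 68.3 and 80.6 CPM in Zeb1 (+/-) libraries, against 94.8, 101 and 84.8 CPM in wild-type libraries. Its genotypes did not overlap (log2 fold change −0.33 ± 0.09, SE; edgeR adjusted p = 0.142), and the value was −0.19 with the structural RNA split and −0.55 with the B cell mean in the fit.

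Transporters that lie outside the Slc symbols were read from a separate list of 41 genes, of which 34 were tested. At an adjusted p under 0.05, 0.433% of all tested genes were lower and 0.155% higher. Of the 34 genes 1 fell and 0 rose, with a median log2 fold change of −0.016. The gene that fell was Nipal1, a magnesium carrier, with 5.92, 5.97 and 6.00 CPM in Zeb1 (+/-) libraries, against 9.79, 9.65 and 12.4 CPM in wild-type libraries. The genotypes stood well apart, at a log2 fold change of −0.82 ± 0.12 (SE; edgeR adjusted p = 0.0292). Without wild-type replicate 2 it was −0.88 (edgeR adjusted p = 0.104). Leaving out Zeb1 (+/-) replicate 1 gave −0.81 (adjusted p = 0.0743), leaving out replicate 2 of that genotype gave −0.82 (adjusted p = 0.147), and the replicate block gave −0.82 (adjusted p = 0.126). In these the size stayed and the call was lost. With the B cell mean in the fit the value was −0.51 and the call was lost too (edgeR adjusted p = 0.290). That fit can hardly part the B cell mean from genotype, so the lost call cannot be assigned to either.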

How the data were processed

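RNA was read from 6 libraries of sorted peritoneal macrophages, 3 per genotype, each from 2 pooled mice. The values are estimated counts of each gene, which the authors deposited in a single table. The submitters' processing notes name STAR, RSEM, edgeR and GRCm38. All values were whole numbers, so RSEM's estimates appear to have been rounded. The sources used here give neither the annotation release nor the strand setting of the counting. The table had 0 columns without a sample.

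Genes were kept by filterByExpr (minimum count 10, minimum total 15), leaving 12940. Genotype was tested by edgeR 4.0.16 (R 4.3.3; TMM, quasi-likelihood F test) over all of them, with Benjamini-Hochberg adjustment and a threshold of 0.05. DESeq2 1.42.0 and limma 3.58.1 (voom) were alternatives. P-values measure the spread between pooled libraries. Coordinates and exon lengths came from GENCODE M21 (GRCm38), and promoters from RefSeq.

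Members, substrate groups and lists were chosen with earlier results of these data known. The 4 scaffold or other genes were moved to a group of their own after the table was seen. Fold changes are printed for Zeb1, for non-overlapping members with an unadjusted p under 0.05 (up to 10 per direction, by size) and for a few genes in comparison with them. Levels are printed for the 3 highest members per group, except 2 genes that are not reported here. Members named beyond that were chosen after their values were seen, as were Nipal1 and Mt1. Shared sequence was counted in stretches of 50 bases against all other transcripts. The fit was tested on simulated data.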

Additional observations from a re-analysis of the deposited data

How the results depend on the processing

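The count over all genes was 76 (20 higher, 56 lower). It was 522 without the filter on low counts, 351 with DESeq2, 214 at an adjusted p under 0.1, 31 with the structural RNA split in the fit and 3 with the B cell mean in the fit. Leaving out 1 library gave 5 to 127 genes, the fewest without wild-type replicate 2 and the most without the third Zeb1 (+/-) library. It gave 28 genes when the first Zeb1 (+/-) library was left out and 11 when the second was. With the replicate block the count was 15 over all genes and 0 over the solute carriers. The labels number the libraries Set 1 to Set 3 in each genotype and do not say whether a shared number pairs them. Deviations of libraries with the same number correlated at −0.25, −0.035 and −0.17, and those of other pairs at −0.086 to 0.27. With so few libraries these values cannot decide whether the sets are paired. The cause of the moves in these counts was not tested.

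Over the 170 solute carriers the count of 0 became 7 without the filter on low counts (2 higher, 5 lower), 6 with DESeq2 (1 higher, 5 lower) and 5 at an adjusted p under 0.1. It was 0 to 1 when 1 library was left out, the 1 being Slc39a10 without Zeb1 (+/-) replicate 1. The 6 genes DESeq2 called were Slc28a2, Slc30a1, Slc39a10, Slc6a6, Slc9a3r2 and Slc9a9, and the fit without the filter added Slc7a5. The median log2 fold change of −0.016 was −0.059 with the B cell mean in the fit and 0.0017 without the filter on low counts. It ran from −0.023 to −0.0016 when 1 library was left out. The 14 members named for their difference had 0 of 196 values with the other sign over 14 settings, and 14 of these values passed the threshold. These members were chosen for genotypes that do not overlap in the same libraries, so the lack of sign changes was largely fixed by the choice. Slc52a3 was −0.17 with the structural RNA split and −0.61 with the B cell mean in the fit, and Slc38a6 was −0.16 with the B cell mean. With 3 libraries per genotype, 21 of the 170 genes had an interval wider than 1.5-fold in at least 1 direction.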

Other observations

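Some solute carriers varied between libraries of the same genotype in the same order. Slc43a2 had 298, 221 and 220 CPM in Zeb1 (+/-) replicates 1 to 3, against 227, 292 and 275 CPM in wild-type replicates 1 to 3. Slc26a2, a sulfate carrier, had 149, 106 and 106 CPM in Zeb1 (+/-) libraries, against 84.6, 118 and 103 CPM in wild-type libraries. In both, Zeb1 (+/-) replicate 1 was the highest of its genotype and wild-type replicate 1 the lowest of its own. Over all tested genes, deviations of these libraries from their genotype means correlated at −0.25. Those of Zeb1 (+/-) replicate 3 and wild-type replicate 1 correlated at 0.27. Such weak values cannot show whether the pattern is particular to solute carriers, and this was not tested.

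The 6 members on chromosome 18, the chromosome of Zeb1, were Slc35a4, Slc26a2, Slc25a46, Slc39a6, Slc12a2 and Slc14a1. Their genotypes overlapped in all 6, with log2 fold changes from −0.28 to 0.24. Over all tested genes, genotypes did not overlap in 19.9%. Targets of NRF2, the factor that induces antioxidant genes, gave 0 of 9 tested genes past the threshold, with a median log2 fold change of −0.035.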
